A study of Mus musculus with 6 samples.

Results

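The Notch receptors, their ligands and their Hes targets were followed in retinal ganglion cells (RGCs), the neurons that send the axons of the optic nerve. The members were the 10 genes of the count table with the symbols Notch1, Notch2, Notch3, Dll1, Dll3, Dll4, Jag1, Jag2, Hes1 and Hes5, of 24060 genes in all, and all 10 had enough counts to be tested. RGCs of C57BL/6 mice were purified by immunopanning from embryonic day 18 (E18) or postnatal day 5 (P5) retinas. Papain-dissociated cells were first cleared of macrophages and then bound to dishes carrying antibodies against CD90, the product of Thy1. The untreated groups held 3 E18 samples (replicates 1, 3 and 4) and 3 P5 samples (replicates 6, 8 and 9). The comparison asks how expression differs between RGCs that extend axons readily and RGCs that have lost this capacity. For E18 replicate 1 the column name holds 2 and 5 as well, and whether it pools preparations is not stated. Nothing says that the samples came from separate animals or litters, so the p-values measure only the spread between these samples, which may be technical.

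Notch receptors sit in the plasma membrane and bind Delta-like or Jagged ligands on a neighbouring cell. Binding lets ADAM proteases and then γ-secretase cut the receptor, and its freed intracellular part enters the nucleus, joins RBPJ and Mastermind proteins, and turns on Hes and Hey repressors. In the developing retina, Hes1 and Hes5 hold progenitors back from becoming neurons, newly born neurons present Delta ligands to those progenitors, and Müller glia keep Notch signaling longest.

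Counts on genes ranged from 81213639 to 114512853 per sample. The RGC label was checked against 15 RGC markers, which summed to between 10678 and 12185 CPM (counts scaled to the library total after TMM normalization) at E18 and between 10613 and 11671 at P5. At E18 the largest parts were Tubb3, Nefl, Gap43 and Stmn2. By edgeR's quasi-likelihood (QL) test 5 were higher (Sncg, Isl1, Gap43, Ebf1 and Tubb3) and 5 lower (Pou4f3, Thy1, Slc17a6, Nefl and Nefh). Thy1, whose product was the panning target, had 212, 217 and 312 CPM at E18 and 469 to 690 at P5. For every list here, the shares of all genes tested were 20.8% higher and 22.5% lower. Of 12 retinal progenitor markers, 9 passed the QL test as higher at E18 and 0 as lower. Their sum was 401, 253 and 114 CPM in E18 replicates 1, 3 and 4 against 97.8 to 125 at P5. The 14 dividing-cell markers gave 8 higher and 0 lower, with sums of 384, 146 and 84.2 CPM against 68.3 to 84.9. The 8 markers of neurogenic precursors gave 5 higher and 0 lower of 7 tested, with sums of 63.1, 49.7 and 21.7 CPM against 8.11 to 14.1. E18 replicate 1 thus held the most of these transcripts and E18 replicate 4 the least among the E18 samples. The list for Müller cells and astrocytes held 12 genes, of which 10 were tested, with 2 higher (Glul and Sox9) and 2 lower (Clu and Dkk3). It summed to 531, 480 and 447 CPM in E18 replicates 1, 3 and 4 and to 485 to 520 at P5, mostly from Glul and Dkk3. Within it, Slc1a3 had 16.2, 2.80 and 0.475 CPM in E18 replicates 1, 3 and 4 against 1.11 to 1.78 at P5, and Sox9 had 1.82, 0.580 and 0.188 CPM against 0.159 to 0.192. Clu ran in the reverse order over the E18 samples, with 22.6, 23.7 and 29.6 CPM against 41.9 to 77.1. Microglial genes (11 listed, 9 tested, 1 higher, 0 lower) summed to 4.85 to 5.29 and 3.58 to 3.72 CPM. Amacrine genes (10 listed and tested, 5 higher, 1 lower) summed to 356 to 548 and 609 to 744, and photoreceptor genes (9 listed, 8 tested, 3 higher, 1 lower) to 3.81 to 11.5 and 3.81 to 4.93. Endothelial and pericyte genes (12 listed, 9 tested, 1 higher, 3 lower) summed to 74.1, 65.7 and 17.5 CPM at E18, most of it from Kdr, and to 16.3 to 19.5 at P5. Among its endothelial genes, Cdh5, Tie1 and Emcn lay between 0 and 0.0638 CPM in every sample, whereas Pecam1 (0.562 to 0.895 CPM at E18, 2.09 to 2.67 at P5) and Tek (0.544 to 1.01, 2.26 to 3.64) were detected at both ages and lower at E18. In bulk RNA, fewer cells of a type and less RNA per cell cannot be told apart.

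Of the 10 members, Notch1, Notch3 and Jag1 were higher at E18 and Dll3 was lower, by the QL test with Benjamini-Hochberg adjustment over the 16449 genes tested (edgeR adjusted p throughout, with SE the standard error of a log2 fold change). The other 6 did not pass. Of all genes tested, 43.4% were called, 20.8% as higher at E18 and 22.5% as lower, so 4 of 10 called stands near the background. The E18 and P5 samples did not overlap for these same 4 members, 3 with every E18 sample above and 1 with every E18 sample below, against 56.1% of all genes tested, 27.6% above and 28.5% below. The median log2 fold change of the members was 0.53, and that of all genes tested was 0.00. E18 replicate 1 was the highest of the 6 samples for 7 of the 10 members, against 13.6% of all genes tested. Raw counts of the members ran from 50 to 5959 reads per sample.

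**Figure D1:**
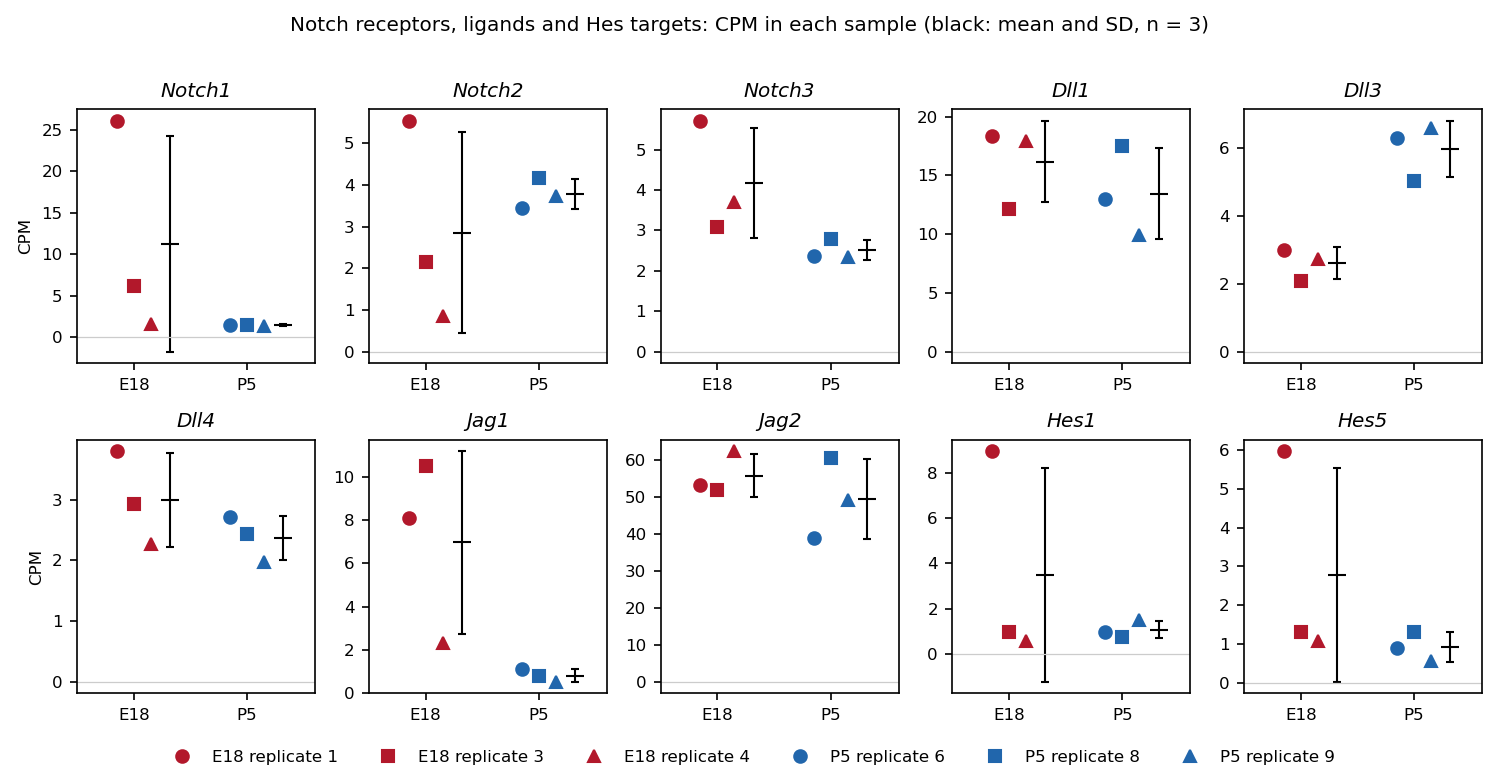
CPM (y axis, linear, one scale per gene) of the 10 members in each E18 (red) and P5 (blue) sample, with the mean and SD of 3 samples in black. Notch1, Hes1 and Hes5 were highest in E18 replicate 1, Jag1 was above P5 in every E18 sample, and Dll3 was below P5 in every E18 sample.

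Among the receptors, Notch1 (NM_008714, chromosome 2 of mm10, 26457903 to 26516663, minus strand) had 2160, 692 and 144 reads in E18 replicates 1, 3 and 4, and 130, 149 and 124 reads in P5 replicates 6, 8 and 9. These were 26.0, 6.17 and 1.59 CPM at E18 and 1.47, 1.51 and 1.32 CPM at P5. Every E18 sample lay above every P5 sample, but E18 replicate 4 did so narrowly, and the E18 samples spanned a 16.4-fold range against 1.15-fold at P5. The group values were 11.3 ± 13.0 and 1.43 ± 0.102 CPM (SD, n = 3 each). The log2 fold change of E18 over P5 was 2.97 (SE 0.818, edgeR adjusted p = 0.0188). Without E18 replicate 1 it was 1.45 (edgeR adjusted p = 0.0466), and the call was lost without P5 replicate 6 (2.99, edgeR adjusted p = 0.0773), P5 replicate 8 (3.01, 0.0516) or P5 replicate 9 (2.91, 0.0636). The progenitor and dividing-cell sums given above followed the same order over the E18 samples. Of the Müller and astrocyte list, Glul, Slc1a3, Apoe, Dkk3, Kcnj10, Pax2 and Sox9 did so too, Glul only slightly (326, 323 and 313 CPM). Clu and Aldh1l1 ran in the reverse order, and Rlbp1, Aqp4 and Gfap in neither. The part of any of these in the Notch1 difference was not tested.

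Notch2 (NM_010928, chromosome 3, 98013527 to 98150361, plus strand), a receptor with much the same domain plan as Notch1, had 5.53, 2.16 and 0.861 CPM in E18 replicates 1, 3 and 4 and 3.45, 4.16 and 3.73 CPM in P5 replicates 6, 8 and 9. E18 replicate 1 lay above all P5 samples and the other two E18 samples below them. Over all samples the log2 fold change was -0.41 (SE 0.532, edgeR adjusted p = 0.559). Without E18 replicate 1 it was -1.31 and passed (edgeR adjusted p = 0.0298), and without E18 replicate 4 it was 0.020 (edgeR adjusted p = 0.972). The E18 samples therefore decide both the size and the direction.

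Notch3 (NM_008716, chromosome 17, 32120820 to 32166852, minus strand) is best known from pericytes and smooth muscle of vessels and is also made by neural progenitors. It had 5.71, 3.09 and 3.71 CPM at E18 and 2.38, 2.79 and 2.35 CPM at P5. All E18 samples were above all P5 samples, and replicate 1 was again the highest. The log2 fold change was 0.73 (SE 0.253, edgeR adjusted p = 0.0438). The call held in 1 of the 6 fits that left out a sample, the one without E18 replicate 3 (edgeR adjusted p = 0.0366). It was lost without E18 replicate 1 (0.44, edgeR adjusted p = 0.168), E18 replicate 4 (0.81, 0.0584), P5 replicate 6 (0.68, 0.129), P5 replicate 8 (0.80, 0.0527) or P5 replicate 9 (0.69, 0.112). Of the pericyte markers, Pdgfrb had 0.759, 0.169 and 0.121 CPM at E18 and 0.0677 to 0.308 at P5. Rgs5 was at most 0.133 CPM at E18 against 1.47 to 3.08 at P5. Cspg4 had 0.313, 0.116 and 0.121 CPM at E18 against 0.181 to 0.248 at P5, and Acta2 had 0.639, 0.446 and 0.199 CPM against 0.319 to 0.427. The part of these transcripts in the Notch3 difference was not tested. A gene on the opposite strand, Gm17276, overlaps 21024 bases of the Notch3 span, and whether reads were counted by strand is not stated. The spans of Notch1, Dll1, Dll4 and Hes5 also overlap opposite-strand transcripts, by 411 to 1873 bases.

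Among the Delta ligands, Dll3 (NM_007866, chromosome 7, 28293553 to 28302238, minus strand) passed the test. It is a divergent ligand that stays largely inside the cell and is known to dampen Notch signaling there rather than to activate the receptor of a neighbour. It had 248, 234 and 247 reads at E18 and 556, 495 and 619 at P5, that is 2.99, 2.09 and 2.73 CPM against 6.27, 5.03 and 6.58 CPM. Every E18 sample was below every P5 sample, with little spread within either age. The log2 fold change was -1.20 (SE 0.205, edgeR adjusted p = 0.00247), a level 2.29-fold higher at P5. The call held in all 6 fits that left out a sample, with values from -1.32 to -1.05.

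Dll1 (NM_007865, chromosome 17, 15367354 to 15376872, minus strand) is the main Delta ligand shown by newborn retinal neurons. It had 18.37, 12.2 and 17.9 CPM at E18 and 13.0, 17.5 and 9.89 CPM at P5. The ages overlapped, and the log2 fold change of 0.26 (SE 0.229, edgeR adjusted p = 0.377) was within the spread between samples. Dll4 (NM_019454, chromosome 2, 119325784 to 119335962, plus strand), a ligand of endothelial tip cells and of early retinal neurons, was at 3.797, 2.93 and 2.26 CPM at E18 and 2.71, 2.43 and 1.98 CPM at P5. Its ages overlapped too (log2 fold change 0.34, SE 0.244, edgeR adjusted p = 0.291). Neither passed in any of the 6 fits that left out a sample.

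The Jagged ligands differed from each other. Jag1 (NM_013822, chromosome 2, 137081456 to 137116644, minus strand), a transmembrane ligand of progenitors, lens and vessels, had 672, 1177 and 209 reads at E18 and 99, 79 and 50 at P5. In CPM these were 8.10, 10.5 and 2.31 against 1.12, 0.802 and 0.532. The lowest E18 sample, replicate 4, was above the highest P5 sample, and replicate 3 was the highest, unlike for Notch1. The log2 fold change of 3.09 (SE 0.533, edgeR adjusted p = 0.00252) was the largest of the 10 members, 8.53-fold, and it held without each sample in turn (2.67 to 3.51). Sox2, a progenitor factor, had 45.7, 69.3 and 0.950 CPM at E18 and 0.790 to 1.48 at P5, and Kdr, the Vegf receptor listed with endothelial genes, had 69.5, 62.9 and 14.1 CPM against 4.79 to 11.3. Both were more abundant in replicates 1 and 3 than in replicate 4, Sox2 with replicate 3 highest and Kdr with replicate 1 highest. Several amacrine markers had replicate 3 highest and replicate 4 lowest among the E18 samples, as Jag1 did. For replicates 1, 3 and 4, Tfap2b was at 47.5, 119 and 1.62 CPM, with P5 samples from 1.02 to 1.55, and Chat had 5.59, 10.9 and 0.287 CPM against 0.237 to 0.797. Gad1 had 19.2, 35.1 and 0.486 CPM against 1.86 to 3.91. The part of these transcripts in the Jag1 difference was not tested.

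Jag2 (NM_010588, chromosome 12, 112907819 to 112929776, minus strand), a ligand known from motor neurons and limb buds, had 53.1, 51.8 and 62.4 CPM at E18 and 38.9, 60.5 and 49.3 CPM at P5. The ages overlapped, and the log2 fold change was 0.17 (SE 0.159, edgeR adjusted p = 0.412). Between E18 samples Jag2 varied 1.20-fold, the smallest range of the members.

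**Figure D2:**
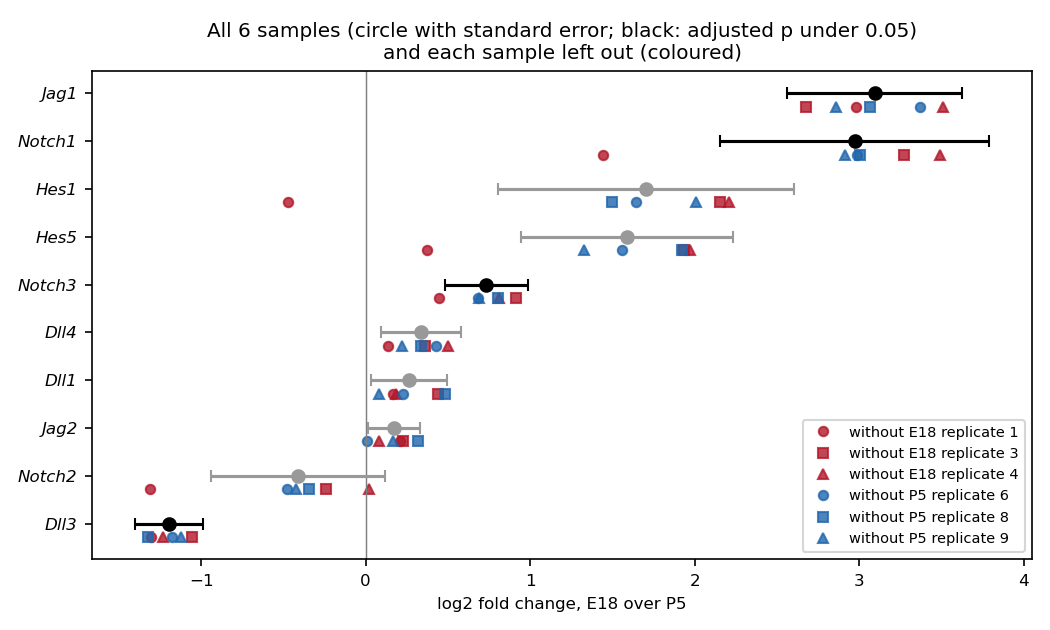
Log2 fold change of E18 over P5 (x axis) for each member with its SE, in black where the adjusted p was under 0.05 and in grey otherwise, and below it the value without each sample in turn. Jag1 and Dll3 kept their call whichever sample was left out, whereas Hes1 moved to -0.47 and Notch1 to 1.45 without E18 replicate 1.

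The targets Hes1 and Hes5 encode basic helix-loop-helix repressors that silence proneural genes. Hes1 (NM_008235, chromosome 16, 30064384 to 30067796, plus strand) had 744, 110 and 50 reads at E18 and 87, 74 and 139 at P5, which gave 8.97, 0.981 and 0.552 CPM against 0.981, 0.752 and 1.48 CPM. E18 replicate 1 was high and E18 replicate 4 was the lowest of the 6. The order of the E18 samples was that of the progenitor, dividing-cell and neurogenic precursor sums. Glul, Slc1a3, Apoe, Dkk3, Kcnj10, Pax2 and Sox9 also shared it, Clu and Aldh1l1 ran in reverse, and Rlbp1, Aqp4 and Gfap in neither order. The part of any of these in the Hes1 values was not tested. The log2 fold change of 1.70 had a SE of 0.898 and did not pass (edgeR adjusted p = 0.154). Without E18 replicate 1 it turned to -0.47 (edgeR adjusted p = 0.396), and without E18 replicate 4 it was 2.21 and passed (edgeR adjusted p = 0.0432).

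Hes5 (NM_010419, chromosome 4, 154960923 to 154962371, plus strand) had 495, 147 and 97 reads at E18 and 79, 129 and 53 at P5, or 5.97, 1.31 and 1.07 CPM against 0.891, 1.31 and 0.563 CPM. Again E18 replicate 1 was high, and the other two E18 samples lay at or near the highest P5 sample. The log2 fold change was 1.59 (SE 0.644, edgeR adjusted p = 0.0751), and it was 0.37 without E18 replicate 1 (edgeR adjusted p = 0.476). It passed by edgeR's exact test (edgeR adjusted p = 0.0376), by its likelihood ratio test (0.0348), with no filter on low counts (0.0461) and without E18 replicate 4 (0.0299), so the call for Hes5 depends on the test, the filter and the samples.

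The promoter of Hes5 is shown because Hes5 is a direct target of RBPJ, whose core recognition letters are TGGGAA. The 250 bases before the start site were searched on both strands in RefSeq promoters of GRCm38.p6, the assembly of mm10, and 21.6% of all 32851 promoters in the table held at least 1 match and 2.77% at least 2. Of the members, 9 had an entry (Hes1 had none), and Hes5 held 2 matches and the others 0. Of the other targets, 7 had an entry and 4 held a match, among them Hes7, which is printed for comparison. Capitals mark the matches, read as TTCCCA where the motif is on the opposite strand, and a match is a description of the letters only. The Hes5 stretch is chr4:154960673-154960922 on the plus strand, with matches that begin 226 and 82 bases before the start site, and the Hes7 stretch is chr11:69120203-69120452 on the plus strand, with a match that begins 180 bases before it.
Hes5: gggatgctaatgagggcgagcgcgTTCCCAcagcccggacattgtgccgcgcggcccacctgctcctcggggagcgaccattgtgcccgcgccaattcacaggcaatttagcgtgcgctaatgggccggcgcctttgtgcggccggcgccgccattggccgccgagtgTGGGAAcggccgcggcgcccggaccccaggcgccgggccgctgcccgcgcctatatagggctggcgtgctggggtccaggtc
Hes7: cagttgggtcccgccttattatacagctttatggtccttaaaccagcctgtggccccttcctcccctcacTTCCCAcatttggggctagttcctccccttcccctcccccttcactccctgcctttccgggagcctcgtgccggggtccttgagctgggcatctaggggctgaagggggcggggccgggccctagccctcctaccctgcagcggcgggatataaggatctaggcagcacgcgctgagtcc

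Levels of different genes were compared per kilobase, as CPM divided by the length of the matching GENCODE transcript (RPKM). At P5 the order was Jag2 (9.71 ± 2.12 RPKM), Dll1 (3.76 ± 1.07), Dll3 (2.28 ± 0.314), Hes1 (0.729 ± 0.253), Hes5 (0.724 ± 0.294), Dll4 (0.633 ± 0.0983), Notch2 (0.360 ± 0.0342), Notch3 (0.313 ± 0.0309), Notch1 (0.151 ± 0.0107) and Jag1 (0.146 ± 0.0522; SD, n = 3 each). Neighbours whose sample ranges overlapped, and so were not told apart, were Hes1 with Hes5, Hes5 with Dll4, Notch2 with Notch3, and Notch1 with Jag1. At E18, Jag2 (10.9 ± 1.13 RPKM) and Dll1 (4.51 ± 0.967) again came first. Hes1 (2.38 ± 3.23) and Hes5 (2.19 ± 2.17) followed, then Jag1 (1.24 ± 0.750), Notch1 (1.19 ± 1.37), Dll3 (0.994 ± 0.177), Dll4 (0.799 ± 0.205), Notch3 (0.521 ± 0.171) and Notch2 (0.272 ± 0.230). Apart from Jag2 and Dll1, every pair of neighbours in the E18 order overlapped.

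The makeup of the receptor pool is read from the same RPKM values, with Notch4, a receptor of endothelial cells that is no member, included. Notch4 had 9.58, 8.81 and 9.28 CPM at E18 and 7.28, 7.30 and 6.07 CPM at P5, so its level was even within each age. Its log2 fold change was 0.42 (SE 0.139, edgeR adjusted p = 0.0374), a call that held only without P5 replicate 8 among the 6 fits without a sample and was weakest without E18 replicate 1 (edgeR adjusted p = 0.125). It was also lost by edgeR's exact test (edgeR adjusted p = 0.0516), by its likelihood ratio test (0.0507) and with no filter on low counts (0.0551). The receptors summed to 5.44, 2.58 and 2.12 RPKM in E18 replicates 1, 3 and 4 and to 1.71 to 2.01 RPKM at P5, so a share can fall while the level does not. Notch4 made up 26.7%, 51.8% and 66.4% of the sum in the E18 samples and 53.9% to 58.6% at P5. Notch1 made up 7.93% to 8.20% there, against 50.5%, 25.2% and 7.91% in E18 replicates 1, 3 and 4. Notch2 held 17.4% to 20.8% at P5 and 9.69%, 7.97% and 3.87% in E18 replicates 1, 3 and 4, although its level in replicate 1 was above every P5 sample. In the ligand pool, Jag2 held 52.3% to 63.3% in all 6 samples and Dll1 17.8% to 26.8%, whereas Dll3 held 4.69% to 5.97% at E18 and 9.87% to 16.5% at P5.

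**Figure D3:**
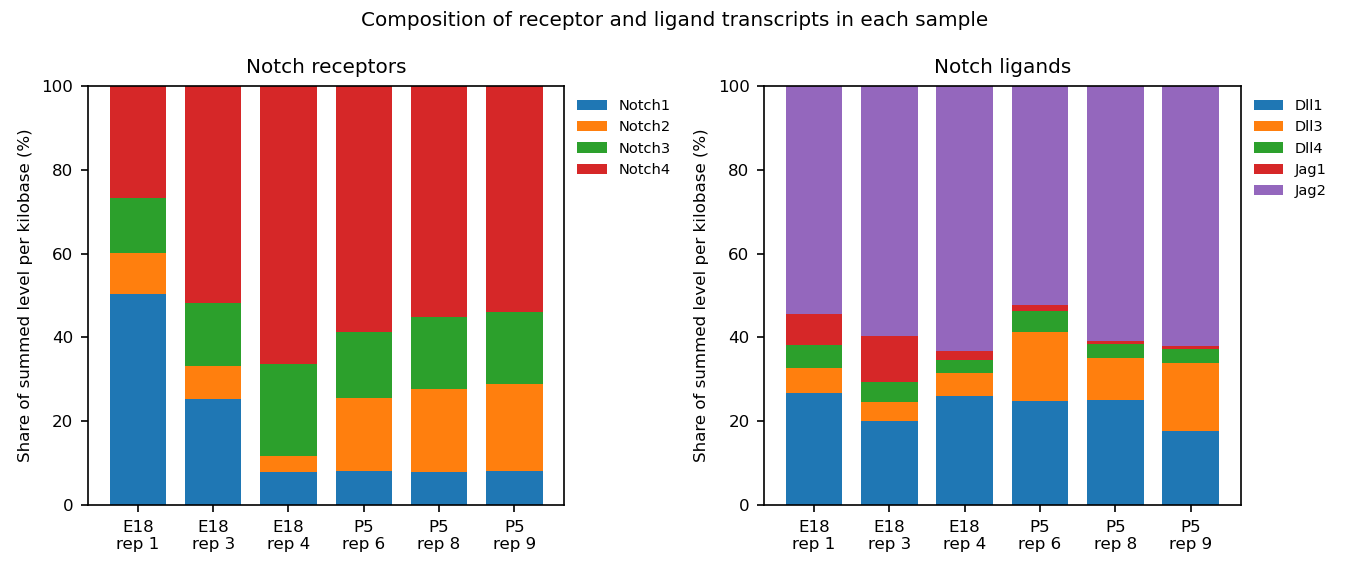
Share (y axis, %) of each Notch receptor (left) and ligand (right) in the summed RPKM of its family, 1 bar per sample. Notch1 took 50.5% in E18 replicate 1 and 7.91% in E18 replicate 4, against 7.93% to 8.20% at P5, and Jag2 was the largest share of the ligands in every sample.

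Likeness between genes was measured as the root mean square difference of log2 CPM, centred on each gene's mean, over the 6 samples, among 13416 genes that are no members and have a mean of at least 1 CPM. The gene most like Notch1 was Neurod4 (0.21 log2 units), a neurogenic factor. Jag1 was closest to Fn1 (0.33), the gene of fibronectin, and Neurog2 (0.39), a proneural factor with 15.9, 23.8 and 2.93 CPM at E18. Hes5 was closest to Prss23 (0.23) and Neil3 (0.27), and Hes1 to Sema5b (0.49) and Ano1 (0.50). Notch2 was closest to Nab2 (0.15) and Rhbdl3 (0.21), and Notch3 to Fanca (0.12) and Rps16 (0.13). The remaining pairs were Dll1 with Tmem88b (0.094) and Vegfc (0.12), Dll3 with Gm11744 (0.064) and Grip2 (0.066), Dll4 with Bcl2l11 (0.074) and Tipin (0.094), and Jag2 with Lhfpl4 (0.038) and Zfp598 (0.039). For Notch1 the nearest fellow member, Hes5, was at 0.77, with 76 other genes nearer.

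**Figure D4:**
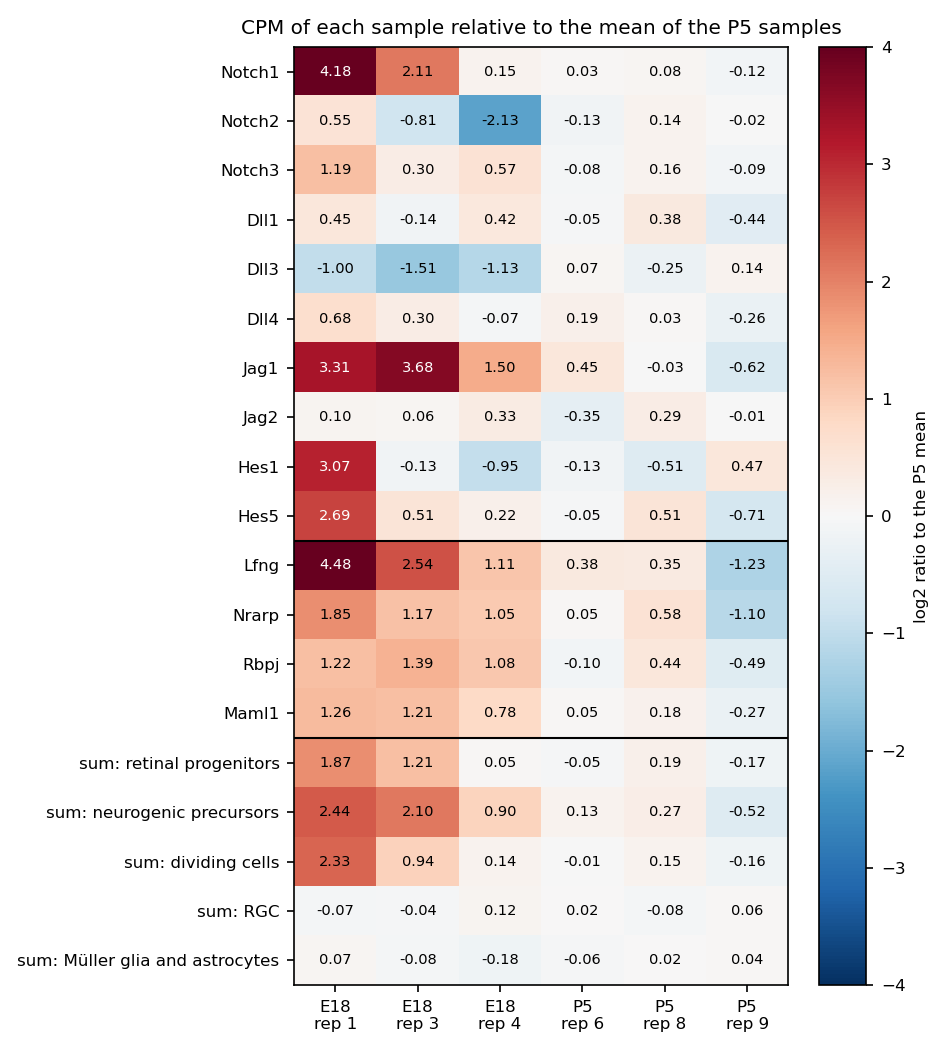
Log2 ratio of each sample's CPM to the mean of the P5 samples (colour and printed value) for the members (top), 4 other pathway genes (middle) and summed marker lists (bottom). Notch1, Hes1, Hes5 and Lfng were highest in E18 replicate 1, while Rbpj and Maml1 were above P5 in all E18 samples.

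The other genes of the pathway were taken from lists by role, 71 genes in the table of which 68 were tested. By the QL test 23 were higher at E18 and 15 lower, against 20.8% and 22.5% of all genes tested, and their median log2 fold change was 0.10. In the nuclear complex that carries the signal, 5 of 12 genes were higher and 2 lower, with a median of 0.26. Rbpj, the DNA-binding partner of cleaved Notch, had 64.8, 73.1 and 59.2 CPM at E18 and 26.1, 37.8 and 19.8 CPM at P5. Its E18 samples were all well above P5 and close to each other (log2 fold change 1.23, SE 0.212, edgeR adjusted p = 0.00247). The Mastermind coactivators Maml1 and Maml2 were higher at E18 by 1.10 and 1.00 on the log2 scale (edgeR adjusted p = 0.00204 and 0.00629). Lower at E18 were Ccnc (-0.46), the cyclin that pairs with Cdk8, and Kat2a (-0.32), an acetyltransferase whose call was lost without any E18 sample in turn or without P5 replicate 9 (-0.34 to -0.26). Within E18 the genes of this list varied 1.01-fold to 1.39-fold, against 1.85-fold to 16.4-fold for the 3 member receptors and 1.09-fold for Notch4. Within P5 the list varied 1.06-fold to 1.91-fold and the 3 member receptors 1.15-fold to 1.21-fold. At E18, Rbpj was highest in replicate 3 and Maml1 in replicate 1.

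Among 13 nuclear repressors tested, which hold RBPJ targets or Hes targets silent, 9 were higher at E18 and 1 lower, with a median of 0.56. Of all genes tested, 20.8% were higher and 22.5% lower. Ctbp2 and Tle1, the latter a Groucho corepressor recruited by Hes proteins, were higher at E18 by 0.98 and 0.95 on the log2 scale (edgeR adjusted p = 0.00162 and 0.00130). The Groucho relative Tle2 was the exception, with 2.35 to 3.34 CPM at E18 and 6.53 to 8.66 CPM at P5 (-1.44, edgeR adjusted p = 0.000952). These 3 calls held without each sample in turn.

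**Figure D5:**
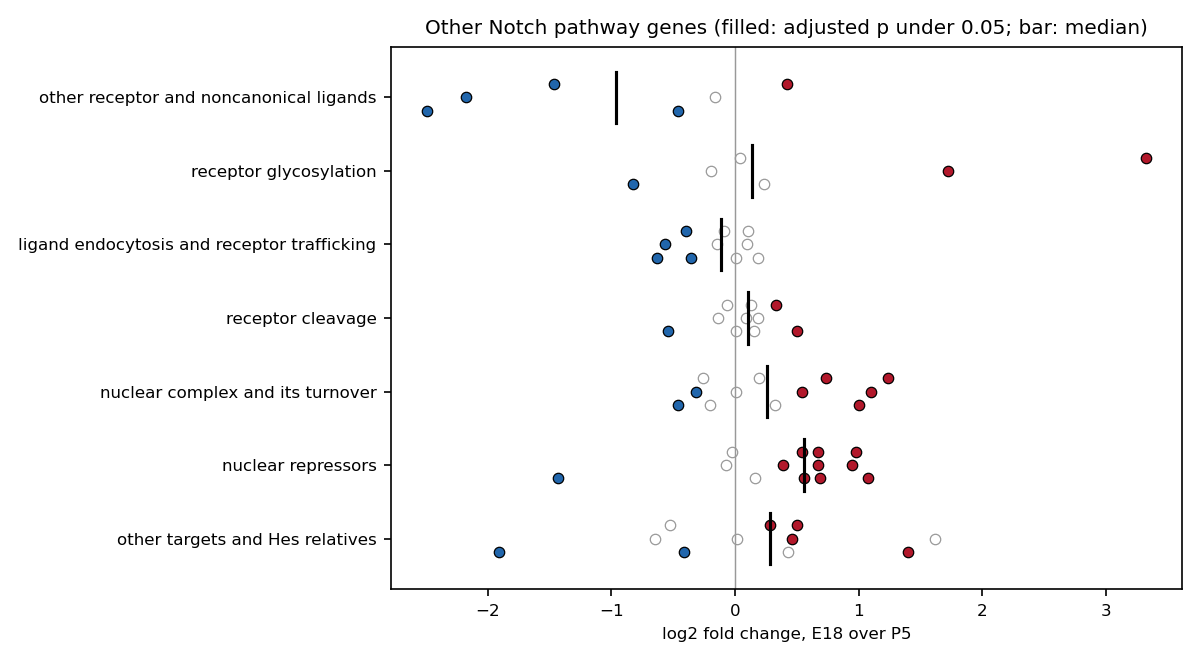
Log2 fold change of E18 over P5 (x axis) for the 68 other pathway genes tested, grouped by role (y axis), filled where the adjusted p was under 0.05, with the median of each list as a bar. The nuclear repressors had 9 of 13 genes higher and 1 lower, and the ligand endocytosis list had 0 of 10 higher and 4 lower. The shares of all genes tested were 20.8% higher and 22.5% lower.

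In the list of receptor glycosylation, 2 of 6 genes were higher and 1 lower, against 20.8% and 22.5% of all genes tested. The Fringe enzymes change which ligands a receptor answers. Lfng had 4.46, 1.16 and 0.431 CPM at E18 and 0.259, 0.254 and 0.0850 CPM at P5, highest in replicate 1 and lowest in replicate 4 among the E18 samples, as for Notch1 (log2 fold change 3.33, SE 0.828, edgeR adjusted p = 0.0124), and it was 2.001 without E18 replicate 1. Mfng was higher as well (1.72, edgeR adjusted p = 0.0101), and Eogt, which adds N-acetylglucosamine to EGF repeats, was lower (-0.83, edgeR adjusted p = 0.00190).

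Of 10 genes of ligand endocytosis and receptor trafficking, 0 were higher and 4 were lower at E18, against 20.8% and 22.5% of all genes tested. The ubiquitin ligases that drive ligand uptake, Neurl1b (-0.63), Neurl1a (-0.57) and Mib1 (-0.39), passed the QL test (edgeR adjusted p = 0.00582, 0.0123 and 0.0270), as did the fourth gene, Epn1. Numb, the inhibitor of Notch that is handed down unevenly at division, was at 13.3 to 16.2 CPM at E18 and 11.9 to 14.6 CPM at P5 and did not pass. Of 10 genes of receptor cleavage, 2 were higher and 1 lower, against the same 20.8% and 22.5%. Adam10, the protease of the ligand-dependent cut, was higher (0.51, edgeR adjusted p = 0.00609), as was Ncstn of γ-secretase (0.33, edgeR adjusted p = 0.0405), and Psen2, an alternative catalytic subunit, was lower (-0.54, edgeR adjusted p = 0.00773). The call for Ncstn held only without P5 replicate 8 among the 6 fits without a sample. The call for Mib1 was lost without E18 replicate 1 (-0.36), E18 replicate 4 (-0.36) or P5 replicate 9 (-0.38), and that for Neurl1a without E18 replicate 1 (-0.52) or E18 replicate 3 (-0.46). Without E18 replicate 1, 1 gene of the endocytosis list was lower, and without E18 replicate 3 or P5 replicate 9, 2 were.

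Noncanonical ligands bind Notch without the domain shared by Delta and Jagged proteins. Of the 6 genes tested in this list, which also holds Notch4, 4 were lower at E18 and 1 was higher, with a median of -0.96. Of all genes tested, 22.5% were lower and 20.8% higher. Cntn1, a contactin of axons that can bind Notch, had 236, 240 and 294 CPM at E18 and 1208, 894 and 1369 CPM at P5 (log2 fold change -2.17, SE 0.165, edgeR adjusted p = 0.000118). Mfap5 (-2.49), a microfibril protein at 0.419 to 3.40 CPM, and Egfl7 (-1.46), a secreted vessel factor, were lower as well (edgeR adjusted p = 0.000556 and 0.0112). Among 11 other targets and Hes relatives tested, 4 were higher and 2 lower, against 20.8% and 22.5% of all genes tested. Nrarp, a target that feeds back on the Notch complex, had 6.65, 4.17 and 3.84 CPM at E18 and 1.92, 2.77 and 0.861 CPM at P5 (1.40, SE 0.402, edgeR adjusted p = 0.0222), and the call was lost without E18 replicate 1 (1.12) or P5 replicate 6 (1.42). Hes6, which counteracts Hes1 and is made by differentiating neurons, was at 33.9 to 43.6 CPM against 23.8 to 32.7 CPM (0.46, edgeR adjusted p = 0.0367), Dtx3 was higher at E18 by 0.29 on the log2 scale (edgeR adjusted p = 0.0285), and both calls held only without P5 replicate 8. The list's count of higher genes was 0 without E18 replicate 1 or P5 replicate 6 and 1 without E18 replicate 3 or P5 replicate 9. Hes7 was lower at E18 (-1.91, edgeR adjusted p = 0.00941), at no more than 0.427 CPM in any sample.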

How the data were processed

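The authors depleted ribosomal RNA, sequenced 3 E18 and 3 P5 samples with paired reads of 100 bases, aligned them to mm10 with STAR and counted genes with HT-seq. PolyA RNA is named in the labels, ribosomal depletion in the study's methods. The authors deposited raw counts, which were used. Their normalized counts, a signal scaled for library size, were not used, nor were the log2 fold changes, p-values and ranks that the authors deposited from their own comparison. Strand setting and the handling of multiply mapped reads are not stated.

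Groups and replicate numbers came from the sample titles. Replicates differed by 30.5 to 141 times sampling noise (chi-square per degree of freedom), so none was a copy. The spread between samples, not depth, limits most values. edgeR 4.0.16 (R 4.3.3) was used for TMM normalization and for a quasi-likelihood (QL) test of the 16449 genes past its expression filter, with a threshold of 0.05. Standard errors were derived from the F statistic. On simulated counts for this comparison (16305 genes), 130 of 199 genes changed 2-fold were recovered, with 13 false calls. In the data 43.4% of genes were called, far more than were changed there, so the simulation does not measure the recovery or error rate of these calls. RPKM used the GENCODE M21 transcript paired with the RefSeq identifier, which also gave coordinates. Named pathway genes were those past the threshold without overlap between ages, up to the 3 furthest above and the 3 furthest below P5 in each list, with Notch4 and Rbpj, and for each member the 2 genes nearest in log2 CPM (prior count 2). Of the genes this rule names, 2 are not reported here. Members and lists were chosen with earlier results of these data known. Genes named beside these (markers, Epn1, Numb, Hey1, Heyl) were named after their values were seen. Alternatives tried were DESeq2 1.42.0, the likelihood ratio and exact tests in edgeR, RLE and upper-quartile normalization, no filter or a mean of at least 10 CPM, and the omission of each sample.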

Additional observations from a re-analysis of the deposited data

How the results depend on the processing

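The number of members higher at E18 was 3, and it ranged from 1 to 4 without each sample in turn, with 1 without P5 replicate 6, 8 or 9. The number lower at E18 was 1, and 1 to 2 without each sample, Notch2 (-1.31) joining Dll3 without E18 replicate 1. Hes1 passed without E18 replicate 4 (2.21). Over all genes 7135 were called, and 4575 (without E18 replicate 3) to 8796 without each sample. The other pathway genes called were 23 higher and 15 lower, and 15 to 25 and 10 to 15 without each sample, with 15 higher without E18 replicate 3 or P5 replicate 6. Under the filter of at least 10 CPM, 4646 genes were called over all, and 0 members in either direction, since only 2 members, Dll1 and Jag2, were left to test. Other normalizations and tests kept 3 to 4 members higher and 1 lower. Only Hes1 without E18 replicate 1 (-0.47) and Notch2 without E18 replicate 4 (0.020) changed sign among the members and named pathway genes. The cause was not tested. No paired analysis was possible because the ages share no replicate number.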

Other observations

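Heyl, a Hey-family target of Notch named after its values were seen, had 2.33, 0.375 and 0.0442 CPM in E18 replicates 1, 3 and 4 and 0.327, 0.366 and 0.191 CPM in P5 replicates 6, 8 and 9. E18 replicate 1 was the highest of the 6 samples and E18 replicate 4 the lowest, the order also seen for Hes1 (log2 fold change 1.62, edgeR adjusted p = 0.219). Hey1, a relative at 17.1 to 19.5 CPM at E18 and 15.9 to 21.4 CPM at P5, had a log2 fold change of 0.013 (edgeR adjusted p = 0.948).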
